A study of Mus musculus with 51 samples.

Results

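Broad domains of trimethylated lysine 27 of histone H3 (H3K27me3) that the 2 tissues of the early mouse embryo share were described: 696 of the 22515 autosomal H3K27me3 peaks called in extraembryonic ectoderm (ExE). A peak was taken where its called length was 100000 bp or more and where at least 1 bp of it overlapped an H3K27me3 peak of the epiblast. The domains were thus chosen by wild-type H3K27me3, through the peak calls of both tissues and the length in ExE, and the wild-type H3K27me3 levels are given as a description without a test. The series profiled H3K27me3, H3K4me3 (found at promoters), H3K36me3 (found over transcribed gene bodies) and input chromatin by ultra-low-input native ChIP-seq at embryonic day 6.5 (E6.5), from pools of 8 ExE or 4 epiblasts with about 2500 cells each. Hybrid embryos were used so that reads over strain polymorphisms could be assigned to a parent. B6/CAST embryos had a C57BL6/Babr mother and a CAST/Ei father, CAST/B6 embryos were the reciprocal cross, and both were wild type. The matDKO/CAST embryos came from mothers of mixed B6/129 background that carried floxed Dnmt3a and Dnmt3b alleles removed in the oocyte by Zp3-cre, crossed to CAST males. The embryos were heterozygous for both deletions, and their oocytes lacked the 2 de novo DNA methyltransferases. Each mark had 2 libraries per tissue and cross, so that every wild-type comparison of tissues rests on 4 libraries against 4. The libraries are pools of embryos, and p-values measure the spread between these pools.

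H3K27me3 is deposited by Polycomb repressive complex 2. In most embryonic tissues it sits at CpG-rich promoters of silent developmental regulators, and long continuous domains are known over the Hox clusters. In extraembryonic tissue of the placental lineage, H3K27me3 also spreads over long distances around some imprinted genes, where the long non-coding RNAs Airn and Kcnq1ot1 are transcribed from the paternal allele and neighbouring genes are silenced on that allele in cis. A parental bias in H3K27me3 is read here from the allelic reads of a domain: its percent paternal is the share of allele-assigned reads that carry the father's alleles.

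The labelled tissues were compared with H3K4me3 at the start sites of marker genes. Of 7 epiblast markers on the autosomes, 5 were higher in every epiblast library than in every ExE library, and none was higher in every ExE library (summed RPKM 175.1 to 248.1 in epiblast and 77.1 to 125.5 in ExE). Of 9 ExE markers, Cdx2, Tfap2c, Hand1 and Bmp4 were higher in every ExE library, while Esrrb was higher in every epiblast library and Elf5 was near 0 in both tissues (0.367 and 0.197 RPKM). The summed ExE markers lay between 140.5 and 204.2 RPKM in ExE and between 89.9 and 149.2 RPKM in epiblast. Markers of visceral endoderm, which can remain on dissected tissue, also carried signal. Of 9 such markers Ttr, Apoa1, Apob and Cubn were higher in every ExE library and Sox17 in every epiblast library, and the sum was 55.9 to 97.9 RPKM in ExE and 38.1 to 68.0 RPKM in epiblast. No visceral endoderm marker was at 0 in the mean of either tissue, and the part of such cells in the results was not tested.

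The domains were few and long. They made up 3.09% of ExE peaks but 23.6% of the peak length, 118.5 Mb in all or 4.81% of the autosomes. Their median length was 138500 bp (quartiles 115000 and 193500 bp) and the longest, over Arid1b (a subunit of the BAF chromatin remodelling complex) at chr17:4348501-5146000, spanned 797500 bp. Nearly all ExE peaks of this length were shared: 739 peaks reached 100000 bp and 43 of these met no epiblast peak. Sharing was mostly partial. Epiblast peaks covered a median of 30.2% of a domain, from 0.240% to 100%, with a median of 5 separate epiblast peaks in each. At least 50% of the length was covered in 192 domains, over 90% in 17, and under 10% in 97. Just inside the length threshold lay domains of 100000 bp at Cfap221/Sctr (chr1:119916501-120016500; mean RPKM 0.989 in ExE and 0.757 in epiblast), at chr10:60958501-61058500 (1.17 and 0.726) and at Tspoap1/Mpo/Lpo (chr11:87746501-87846500; 2.14 and 1.49). Just outside it lay peaks of 99500 bp at Mas1/Mrgprh (chr17:12795501-12895000; 2.38 and 1.39), Helt (chr8:46212001-46311500; 1.48 and 2.41) and Bean1 (chr8:104123001-104222500; 1.27 and 1.21).

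For 6 domains that the results turn on, the 1 kb window with the highest mean wild-type ExE H3K27me3 was taken, and the 300 bases in it with the most CpG dinucleotides outside annotated exons are shown from the forward strand of GRCm38, in lower case with each CpG in capitals. The Evx2/Hoxd13 domain had the highest ExE level of the domains: its stretch (chr2:74657411-74657710) lies in an intron of Evx2 and holds 16 CpG. The Plg/Slc22a3 domain had the largest paternal bias of the domains named here, and its stretch (chr17:12506361-12506660, an intron of Slc22a3) holds 8 CpG. The Dlk1 domain had the largest maternal bias, with 9 CpG in an intron of Dlk1 (chr12:109459001-109459300). The Arid1b domain was the longest, with 6 CpG between protein-coding genes (chr17:4910481-4910780). The Cdx2/Urad domain had the largest H3K4me3 gain in ExE, with 7 CpG in an intron of Flt3 (chr5:147399051-147399350). The domain at chr2:11009001-11120500 had the lowest ExE level, with 8 CpG between protein-coding genes (chr2:11061121-11061420).
Evx2/Hoxd13: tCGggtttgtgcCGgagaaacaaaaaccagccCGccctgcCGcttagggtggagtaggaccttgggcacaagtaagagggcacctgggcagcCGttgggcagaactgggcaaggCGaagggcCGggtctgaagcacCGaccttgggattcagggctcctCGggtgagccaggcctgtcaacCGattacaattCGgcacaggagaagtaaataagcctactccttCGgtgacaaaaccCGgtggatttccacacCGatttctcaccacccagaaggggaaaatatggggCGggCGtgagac
Plg/Slc22a3: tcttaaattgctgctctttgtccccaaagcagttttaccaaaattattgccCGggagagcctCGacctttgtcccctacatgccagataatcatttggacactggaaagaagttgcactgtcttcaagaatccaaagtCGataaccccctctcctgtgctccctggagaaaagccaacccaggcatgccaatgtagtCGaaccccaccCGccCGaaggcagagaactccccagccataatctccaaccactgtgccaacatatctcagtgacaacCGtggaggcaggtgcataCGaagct
Dlk1: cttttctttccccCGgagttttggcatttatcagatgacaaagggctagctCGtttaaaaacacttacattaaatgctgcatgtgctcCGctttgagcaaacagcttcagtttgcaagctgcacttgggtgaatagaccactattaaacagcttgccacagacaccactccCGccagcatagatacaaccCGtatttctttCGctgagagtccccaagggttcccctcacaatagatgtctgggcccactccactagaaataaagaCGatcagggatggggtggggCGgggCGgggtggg
Arid1b: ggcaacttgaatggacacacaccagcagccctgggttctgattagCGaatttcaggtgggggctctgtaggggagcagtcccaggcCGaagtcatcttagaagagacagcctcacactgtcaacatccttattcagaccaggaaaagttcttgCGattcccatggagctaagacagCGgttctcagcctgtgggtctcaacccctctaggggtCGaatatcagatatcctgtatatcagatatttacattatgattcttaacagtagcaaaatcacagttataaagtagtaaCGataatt
Cdx2/Urad: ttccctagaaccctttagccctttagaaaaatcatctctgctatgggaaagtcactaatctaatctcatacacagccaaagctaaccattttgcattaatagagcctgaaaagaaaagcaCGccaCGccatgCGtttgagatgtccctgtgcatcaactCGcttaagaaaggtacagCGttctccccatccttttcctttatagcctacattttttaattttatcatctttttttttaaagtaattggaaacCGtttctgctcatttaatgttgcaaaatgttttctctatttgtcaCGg
chr2:11009001-11120500: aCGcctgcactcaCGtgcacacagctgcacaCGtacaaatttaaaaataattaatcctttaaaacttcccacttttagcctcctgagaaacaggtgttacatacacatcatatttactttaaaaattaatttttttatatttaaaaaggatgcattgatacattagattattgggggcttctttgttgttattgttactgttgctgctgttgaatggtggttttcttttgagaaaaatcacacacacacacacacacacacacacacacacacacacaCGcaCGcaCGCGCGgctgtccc
Within these windows, wild-type H3K27me3 was 8.58 ± 0.731 RPKM in ExE and 14.2 ± 3.02 in epiblast (SD, n = 4) at Evx2, and 5.07 ± 0.381 and 9.25 ± 2.85 at Dlk1, so that both windows were higher in epiblast. In the window of Plg/Slc22a3 the tissues were within their spread, with 6.47 ± 1.43 RPKM in ExE and 7.00 ± 2.17 in epiblast, and in that of Arid1b the order was the opposite, with 3.11 ± 0.773 and 1.81 ± 0.747. The windows were chosen by their ExE level, which favours ExE in these comparisons. Over all domains the median CpG density was 12.2 per kb, against 10.0 over all ExE peaks, and the median GC content was 47.7% against 44.0%.

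The gene content was mixed. The domains held the start sites of 1489 of 20807 autosomal protein-coding genes (7.16%, against 37.0% for ExE peaks of any length), of 995 lncRNA genes and of 156 miRNA genes. This came to 12.6 protein-coding starts per Mb, fewer than in the 7199 shorter ExE peaks shared with epiblast (24.6) and than in all ExE peaks (15.3). No protein-coding start lay in 114 domains, of which 69 met no protein-coding gene at all and 45 overlapped a gene body. There was 1 start in 224 domains, 2 to 5 in 318 and more than 5 in 40.

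Developmental regulators were present in 77 domains. All 39 Hox genes, which set position along the body axis, lay in 4 domains: Hoxa at chr6:52029501-52326500, Hoxb13 to Hoxb3 and their neighbours at chr11:96131501-96695500, Hoxc at chr15:102723001-103157000 and Evx2 with Hoxd at chr2:74632501-74826000. Of 109 other homeobox genes, every one started in an ExE H3K27me3 peak and 48 in a domain, among them Gbx2, Lhx2, Pax2, Nkx2-5 and Six3. The forkhead factors had 13 of 41 in domains, including Foxd1 and the group Foxf1, Foxc2 and Foxl1. Of 15 T-box genes 4 did (Tbx5, Tbx4, Tbx1 and T, the mesoderm factor brachyury). Of 28 basic helix-loop-helix genes 7 did, and of 55 zinc finger regulators 8. The Sox and Gata families were in ExE peaks (16 of 18 and 5 of 5) but only Sox8 and Gata5 were in domains. Of 110 genes for signalling ligands, receptors and antagonists 20 were in domains, among them Ihh, Wnt4 and the neighbours Fgf3, Fgf4 and Fgf15. Of 67 protocadherin genes, which encode neuronal adhesion proteins, 21 were, and of 1429 olfactory, vomeronasal and trace-amine receptor genes 7 were. Known imprinted genes had 17 of 38 starts in domains, among them Sfmbt2, Magel2, Mkrn3, Igf2, Ascl2, Cd81, Tssc4, Kcnq1, Cdkn1c, Phlda2, Dlk1, Dio3, Pde10a, Plg, Slc22a3 and Slc22a2. Neighbouring genes share a domain, so these are not independent counts.

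The level of H3K27me3 over the domains was higher in epiblast than in ExE in 94 of the 696 domains, and in 47 of the 77 with a developmental regulator. The median domain had 1.20 RPKM in ExE and 0.878 RPKM in epiblast, each the mean of 4 wild-type libraries. In ExE the library medians were 1.19 and 1.03 RPKM (B6/CAST) and 1.35 and 1.26 RPKM (CAST/B6), and in epiblast 0.897 and 0.771 and then 1.02 and 0.812. The 4 ExE libraries thus lay above the 4 epiblast libraries, though the lowest of ExE and the highest of epiblast nearly met. Relative to the mean of all autosomal windows, the domains were at 2.58 to 3.13 times in ExE and 1.91 to 2.45 times in epiblast, while input lay at 0.508 to 0.600 RPKM over them in every library of every cross. The shorter shared peaks had 1.01 and 0.856 RPKM, and the 43 long peaks without an epiblast peak 0.841 and 0.507. In a mixed tissue, fewer cells with the mark and less of it per cell cannot be told apart. The 2 tissues were called separately, and the ExE list chose the extent of each domain.

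**Figure D1:**
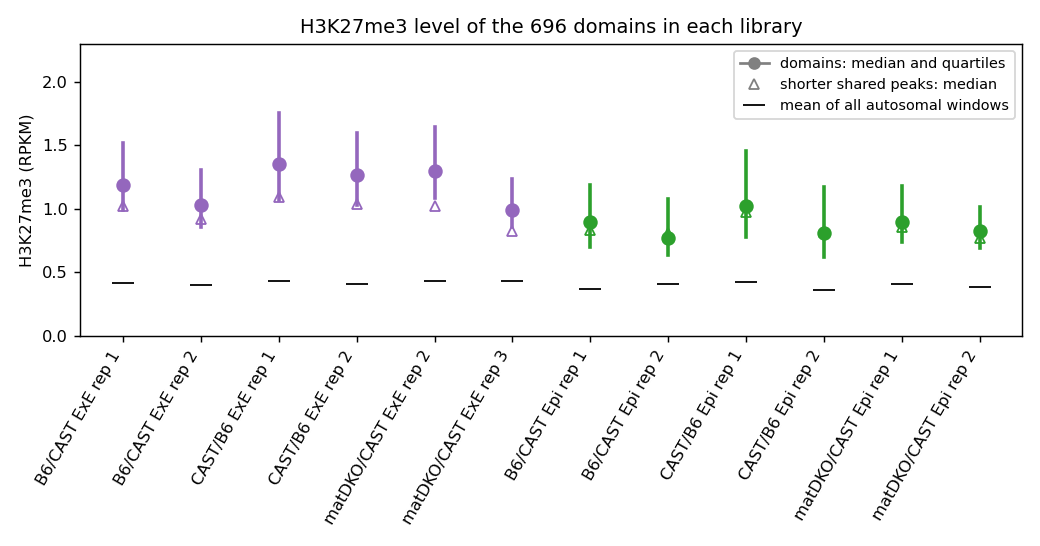
H3K27me3 over the 696 domains in each H3K27me3 library of ExE and epiblast: points are medians of the mean RPKM per domain, bars the quartiles over domains, triangles the median of the 7199 shorter shared peaks and dashes the mean of all autosomal windows. The wild-type ExE medians lie between 1.03 and 1.35 RPKM and those of epiblast between 0.771 and 1.02.

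Domains with a developmental regulator had a median of 1.61 RPKM in ExE and 1.87 in epiblast in the wild type, where the epiblast mean was above the ExE mean in 47 of 77. In matDKO/CAST their medians were 1.52 RPKM in ExE and 1.44 in epiblast. Domains with other protein-coding genes had 1.21 and 0.885 RPKM, and epiblast was above ExE in 42 of 505. Domains without a protein-coding start had 0.956 and 0.654 RPKM, with epiblast above ExE in 5 of 114. Coverage by epiblast peaks followed the level: where at least 50% was covered the medians were 1.75 and 1.44 RPKM, and where under 10% was covered they were 0.905 and 0.579. The epiblast peaks were called on the same epiblast libraries, so that a higher epiblast level with more coverage is built in.

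The Evx2/Hoxd13, Hoxc and Hoxa domains were among the 5 highest in ExE. Single values are always given for the B6/CAST libraries and then for the CAST/B6 libraries. Over the Evx2/Hoxd13 domain, the ExE libraries had 3.63 and 3.40 RPKM for B6/CAST and 4.54 and 3.92 for CAST/B6, and those of epiblast 5.04 and 6.07 and then 8.26 and 7.74. All epiblast libraries were above all ExE libraries. The means were 3.87 ± 0.495 in ExE and 6.78 ± 1.49 in epiblast (SD, n = 4). The Hoxc, Hoxa and Hoxb domains followed the same order, with 3.48 ± 0.592 against 5.50 ± 1.19, 3.26 ± 0.390 against 6.28 ± 1.17 and 2.55 ± 0.353 against 4.16 ± 0.583 RPKM. The other domains among the 5 highest in ExE were the gamma protocadherin cluster (Pcdhga1/Pcdhga2; 3.38 ± 0.365 and 6.61 ± 1.07) and Nfix, a nuclear factor I gene, at chr8:84701501-84818000 (3.24 ± 0.766 and 4.77 ± 1.42). For Nfix the tissues overlapped, with ExE values of 2.78, 2.47, 4.18 and 3.53 and epiblast values of 3.47, 3.70, 6.43 and 5.46 RPKM.

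At the other end, the lowest domain met no protein-coding gene, at chr2:11009001-11120500. Its ExE values were 0.613, 0.618, 0.705 and 0.631 RPKM and its epiblast values 0.529, 0.557, 0.569 and 0.479, so that ExE was higher in every library by a small margin and both tissues were close to the input over the domains. The next lowest ExE means were 0.644 RPKM at chr9:46669001-46800000, 0.693 at Armc3, 0.707 at chr8:88810001-88927000 and 0.708 at Syn3, a synapsin gene.

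Of the 10 longest domains, 4 lay on proximal chromosome 17. Over Arid1b the ExE values were 1.15, 0.981, 1.19 and 0.962 RPKM and the epiblast values 0.497, 0.444, 0.426 and 0.355, with 3.07% covered by epiblast peaks. The tissues did not overlap. The domain at 1700010I14Rik (chr17:8719501-9347000, 627500 bp) had 1.63 ± 0.151 against 0.690 ± 0.0677 RPKM. Among the others were the Hoxb cluster (564000 bp, with 84.9% covered), Prdm16/Arhgef16 (chr4:154298501-154841000), Rbfox3/Enpp7 with the Polycomb gene Cbx2 (chr11:118486501-119025500), Ptpru/Mecr (chr4:131326501-131843500), Shank2 (chr7:143864001-144350000) and Trim29/Nectin1 (chr9:43269001-43753500).

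The parental bias of the domains was then tested in ExE, which the choice of the domains did not use. The design has the parents of either strain in reciprocal crosses, so that a bias towards a parent in both crosses can be separated from a bias towards a strain. All 696 domains had enough allele-assigned reads, with a median per domain of 1458.5 and 1137 reads for B6/CAST and of 2333 and 1412 reads for CAST/B6, against 56 to 99 over all peaks. A domain thus carried far more reads than most peaks, and the part of this depth in the call counts was not tested. The domains held 28.1% to 30.6% of all allele-assigned reads in ExE peaks.

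In B6/CAST, 97 domains were higher on the paternal allele and 63 on the maternal allele, against 5.98% and 5.02% of all tested peaks in each direction. In CAST/B6, the cross with the deepest library, these counts were 120 and 168 (11.5% and 10.3% of peaks). A domain is named imprinted where it was called in both crosses for the same parent. This held for 50 domains with a paternal bias (1.12% of peaks) and for 11 with a maternal bias (0.226%), 61 in all (1.35%). With the alleles of each library taken as pairs the counts were 70 and 28, without TMM scaling they were 47 and 22, and without B6/CAST replicate 1 they were 30 and 5. Fitted jointly over both crosses, 98 domains were higher on the paternal allele (4.75% of peaks) and 77 on the maternal allele (2.52%), with a paired-allele count of 126 and 165 and a DESeq2 count of 75 and 39. The maternal calls depend on the scaling: without TMM the split was 88 to 183. Leaving out B6/CAST replicate 1 gave 108 joint calls, leaving out replicate 2 of that cross 112 and leaving out CAST/B6 replicate 1 gave 101, each from fewer libraries.

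Most domains had little bias. The median joint log2 ratio of paternal to maternal reads was -0.04 over the domains and -0.01 over all peaks, and the median size of the called effects was 0.25. In 24 of the 61 imprinted domains the log2 ratio exceeded 1 in size, in 20 it was under 0.5, and the 114 domains that passed in the joint fit alone had a median size of 0.22. The plot of both crosses shows these small and large effects together.

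**Figure D2:**
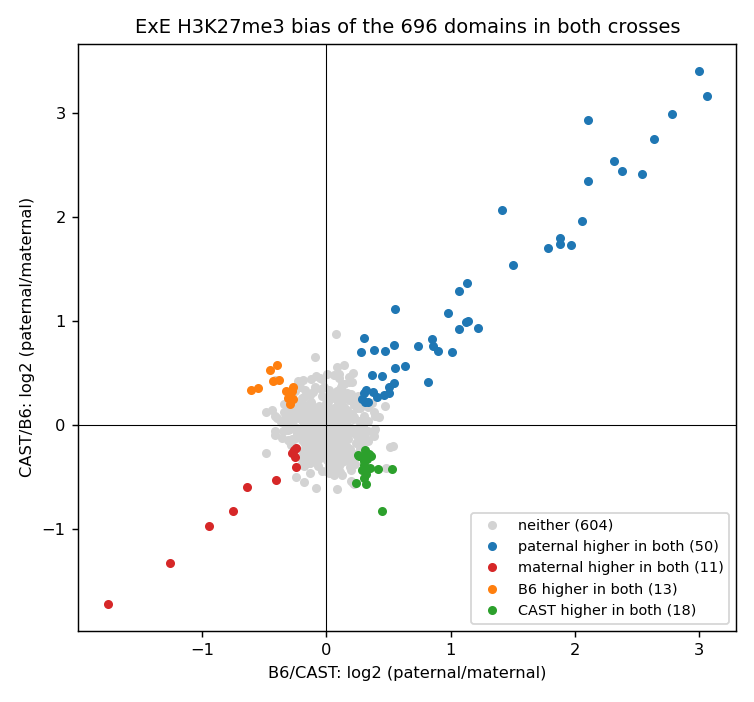
Log2 ratio of paternal to maternal H3K27me3 reads of each domain in ExE, B6/CAST on the x axis and CAST/B6 on the y axis. Of the 696 domains, 50 were called paternal and 11 maternal in both crosses and lie along the rising diagonal, 13 (B6) and 18 (CAST) were called for a strain and lie along the falling diagonal, and the other 604 gather around 0.

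The bias was concentrated on a few chromosomes. Of the 61 imprinted domains, 19 lay on chromosome 7 (18 paternal and 1 maternal) and 24, all paternal, on chromosome 17, which carry the Kcnq1ot1 and Airn clusters. Chromosome 17 had 54 domains with a median joint log2 ratio of 0.29, 32 called paternal and none called maternal, and chromosome 7 had 64 domains with a median of 0.16, 28 called paternal and 4 maternal. On chromosome 12, which carries the Dlk1/Meg3/Dio3 cluster, the direction was the opposite: 35 domains with a median of -0.16, 17 called maternal and 1 paternal. On the other chromosomes, 13 of 543 domains were imprinted (8 paternal and 5 maternal), and the called joint effects had a median size of 0.22.

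Of the domains named here, the largest bias was over Plg (plasminogen) and the organic cation transporter genes Slc22a3 and Slc22a2 (chr17:12372501-12721500), whose sequence is shown above. Its paternal share was 86.8% and 86.5% for B6/CAST and 89.8% and 88.0% for CAST/B6. The paternal share was high in every wild-type library, whichever strain was the father. The joint log2 ratio was 2.89 ± 0.0527 (SE; edgeR adjusted p = 2.75e-164). The domain at Rps6ka2/Tcp10a (chr17:7135001-7348000) had 81.7, 78.5, 88.6 and 88.5 percent paternal (2.52 ± 0.0649). Arid1b had 80.6, 80.1, 85.4 and 81.8 percent paternal and a log2 ratio of 2.23 ± 0.0503 (adjusted p = 8.64e-138). Relative to the start of Airn, imprinted domains on chromosome 17 reached from -9.43 Mb to 36.6 Mb, and the 16 with a log2 ratio above 1 from -9.43 to 31.1 Mb. The last of the 16 was Rcan2, and the other 15 ended by 1.84 Mb.

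The chromosome 7 domains were led by the one over Cdkn1c, a cell cycle inhibitor, and Phlda2, a placental growth regulator (chr7:143297501-143510000), with 83.5, 81.5, 86.8 and 83.9 percent paternal and a log2 ratio of 2.43 ± 0.0525. Around it, the log2 ratio was 1.81 at Ascl2/Cd81, 1.53 at Shank2, 1.08 at Igf2/Ins2, 0.84 at Fgf3/Fgf4 and 0.81 at Ccnd1. The 6 domains above 1 lay between -1.24 and 1.05 Mb of Kcnq1ot1, and the 19 imprinted domains of the chromosome between -118.2 and 1.95 Mb. The percent paternal of Igf2/Ins2, the growth factor and insulin locus, was 67.9, 69.8, 66.2 and 65.8, above 50 in every library but lower than over Cdkn1c/Phlda2.

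**Figure D3:**
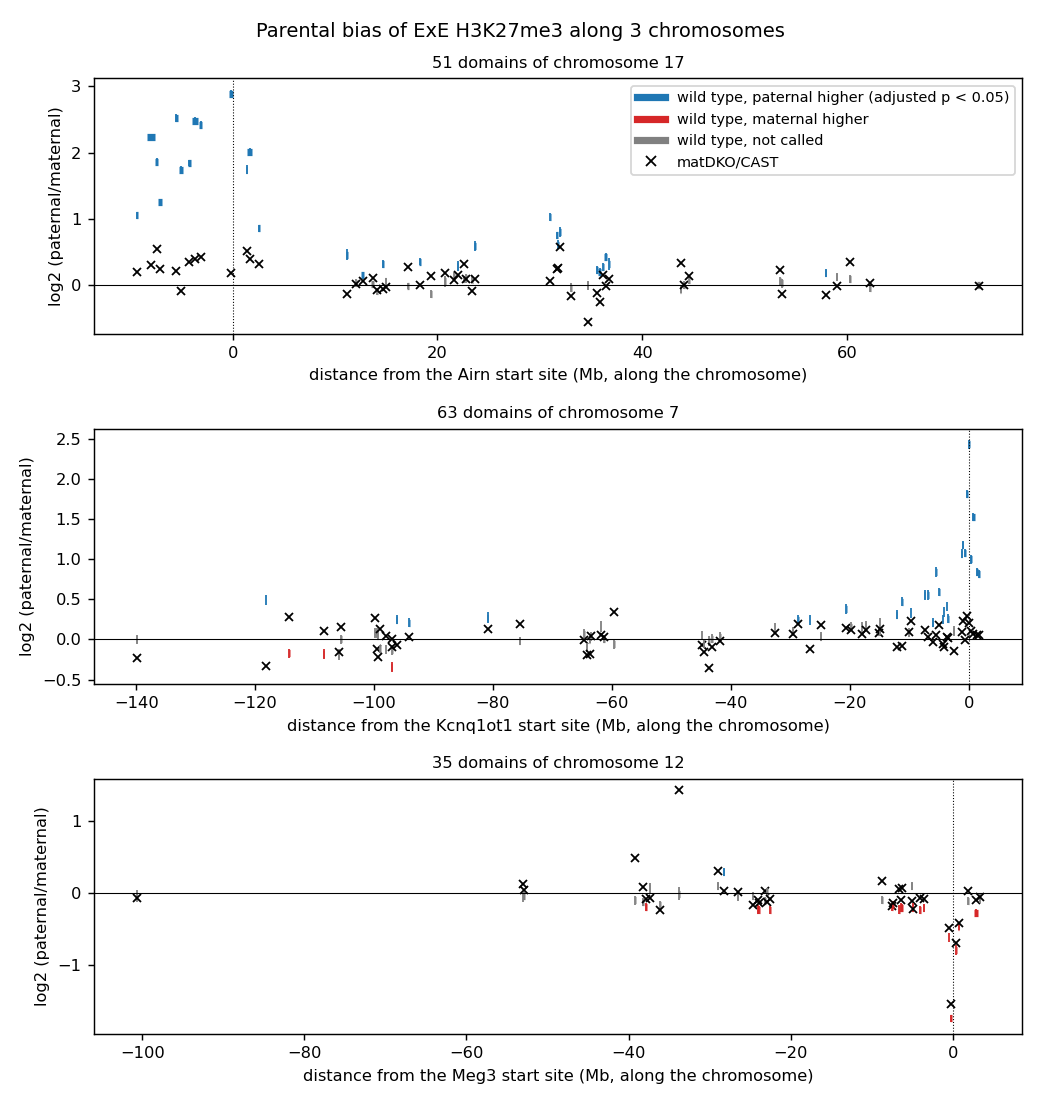
Joint log2 ratio of paternal to maternal H3K27me3 in wild-type ExE for 51, 63 and 35 domains of chromosomes 17, 7 and 12 (horizontal bars over each domain's extent, with ± 1 SE) by distance in Mb from Airn, Kcnq1ot1 and Meg3, with crosses for matDKO/CAST. The values rise to 2.89 near Airn and to 2.43 near Kcnq1ot1 and fall to -1.74 near Meg3.

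The domains with a maternal bias were fewer and weaker. Dlk1, a Notch-ligand-like growth regulator (chr12:109247501-109498000), had 20.3, 23.7, 22.7 and 24.4 percent paternal and a log2 ratio of -1.74 ± 0.0528 (adjusted p = 2.19e-103). Sfmbt2, a Polycomb-related gene needed in the trophoblast (chr2:10276001-10382500), had 27.8, 29.0, 27 and 30.9 percent paternal and -1.29 ± 0.0608. A domain without a protein-coding gene at chr9:89779501-89895500 had 34.2, 31.8, 34.3 and 33.7 percent paternal and -0.96 ± 0.0633 (adjusted p = 2.88e-37). In these 3 domains the maternal allele carried most of the reads in each of the 4 libraries. The others included chr12:109910001-110010500 (-0.79), Begain (-0.61) and the thyroid hormone deiodinase gene Dio3 (-0.47) of the Dlk1 cluster, and, at -0.28 to -0.23, Slit1, Map3k14, Spsb1 and Bdkrb2/Bdkrb1.

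The 8 paternally biased domains outside chromosomes 7 and 17 had log2 ratios of 0.66 at Gm47841, 0.57 at Pmfbp1, 0.44 at chr5:121865001-121983500, 0.35 at Pitx1 (a hindlimb homeobox gene), 0.33 at chr4:142246001-142457500, 0.31 at Nrg4/Tmem266 and 0.27 at both Dlgap4 and Megf6. By gene content, against 1.12% of all peaks paternal and 0.226% maternal, 4 of the 77 domains with a developmental regulator were imprinted, each paternally, among them T/Pde10a on chromosome 17 (1.84). Of the 505 with other protein-coding genes 33 were paternal and 9 maternal, and of the 114 without a start 13 and 2. The difference between these classes was not tested. None of the 4 Hox domains was imprinted. The Hoxb cluster, with 51.0, 51.3, 52.6 and 52.9 percent paternal, passed the joint test at a log2 ratio of 0.14 ± 0.0459 (adjusted p = 0.0347), and 0.14 in each cross alone, where it missed the threshold.

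The share of domains with a strain bias in both crosses was near that of all peaks. Called in both crosses for the same strain were 13 domains higher on B6 (2.07% of peaks) and 18 higher on CAST (2.26%), 31 in all against 4.32% of peaks, with a paired-allele count of 73 and a DESeq2 count of 10. Without TMM scaling the split was 18 for B6 and 16 for CAST. The count fell to 2 without B6/CAST replicate 1, to 5 without replicate 2 of that cross, to 4 without CAST/B6 replicate 1 and to 12 without its replicate 2, each with 1 library left in a cross. In the joint fit, 75 domains were higher on B6 (11.5% of peaks) and 137 on CAST (11.8%), with 123 and 219 for paired alleles, 110 and 124 without TMM and 102 in all with DESeq2. Leaving out B6/CAST replicate 1 or CAST/B6 replicate 1 gave 120 and 126 joint strain calls, and leaving out B6/CAST replicate 2 gave 132. The spread of the joint strain effect over the domains was an SD of 0.154 on the log2 scale, against 0.399 over all peaks. For the parent effect the order was the opposite, with 0.416 over the domains and 0.289 over all peaks. A domain held far more allele-assigned reads than most peaks, and few reads widen a log2 ratio. The part of depth in these spreads was not tested.

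The largest strain effect was at Zfp362/Trim62 (chr4:128787001-128977000), with 58.4 and 54.1 percent paternal for B6/CAST and 33.9 and 39.2 for CAST/B6. The CAST allele was the higher in each of the 4 libraries. The log2 ratio of B6 to CAST was -0.65 ± 0.0526 (adjusted p = 9.21e-26), with a smaller maternal effect of -0.19 ± 0.0526. The domain at chr10:60958501-61058500 had 57.1, 58.6, 43.0 and 43.1 percent paternal and a B6 to CAST log2 ratio of -0.49. On the B6 side, Heatr9/Ccl5 (a chemokine gene; chr11:83514501-83637000) had 40.8, 41.1, 59.5 and 59.2 percent paternal and a log2 ratio of 0.48 ± 0.0590. Slc26a9/Pm20d1 (chr1:131730001-131831500) followed with 42.1, 41.5, 59.2 and 61.5 percent paternal and the same log2 ratio. The other 6 of the 10 largest were Specc1, Zfp831 and Guca1b/Guca1a on the B6 side (0.42 to 0.46) and Aldh1b1/Igfbpl1, Traf1/Hc and Trim9 on the CAST side (-0.45 to -0.42). The 13 domains lay on 9 chromosomes and the 18 on 12. In matDKO/CAST, where the father was also CAST, the paternal allele was the higher in 16 of the 18 and in 0 of the 13.

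The epiblast peaks inside the domains carried fewer reads. Of the 2251 epiblast H3K27me3 peaks that met a domain (19.1% of 11810), 1915 had enough reads, with a median of 49 to 108 allele-assigned reads in the wild-type libraries. Imprinted in both crosses were 18 paternal peaks and 2 maternal peaks, against 0.28% and 0.0448% of all tested epiblast peaks, with 37 in all for paired alleles and 12 for DESeq2. In the joint fit, 36 were paternal (0.628%) and 5 maternal (0.123%), and 69 and 39 with paired alleles. The counts moved with single libraries: without CAST/B6 replicate 1 or 2 the imprinted count was 11 and 10 and the joint count 21 and 27, while without B6/CAST replicate 2 they were 31 and 100 (59 paternal and 41 maternal). Per cross, 27 and 7 peaks passed in B6/CAST (0.952% and 0.605% of peaks) and 114 and 125 in CAST/B6 (6.63% and 6.23%).

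The 41 joint calls lay in 18 domains and all had the direction of the ExE domain around them. Of them 40 lay in 17 of the 61 domains imprinted in ExE, and 36 were on chromosomes 7 and 17. In the domain without a protein-coding gene at chr9:89779501-89895500, the epiblast peak chr9:89861001-89894500 had 14.2, 18, 11.4 and 10.0 percent paternal and a log2 ratio of -2.67 ± 0.131 (adjusted p = 1.44e-13), a stronger bias than that of the whole domain in ExE, of which the peak is a part. The Dlk1 domain held an epiblast peak at -1.54 and Sfmbt2 one at -0.66. The epiblast peak over Cdkn1c/Phlda2 had 81.9, 80.5, 85.6 and 85.1 percent paternal (2.37 ± 0.111), near the ExE values. At Plg/Slc22a3 the epiblast peak had 77.1, 70.1, 73.6 and 75 percent paternal (1.57 ± 0.118), lower than in any ExE library. The difference between tissues was not tested, since the peaks differ in extent. The remaining call was at Magel2/Mkrn3, imprinted genes of the Prader-Willi region (chr7:62364501-62492000), with 61.3, 59.1, 72.5 and 74.2 percent paternal in epiblast (1.07 ± 0.148, adjusted p = 5.53e-05). The ExE domain there had 53.0, 53.2, 57.9 and 51.6 percent paternal, passed in the joint fit (0.27 ± 0.0669, adjusted p = 0.00218) and missed the threshold in B6/CAST.

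Strain calls in epiblast were 5 peaks higher on B6 and 3 on CAST in both crosses (0.459% and 0.549% of epiblast peaks), with 29 in all for paired alleles and 2 for DESeq2. The joint fit gave 38 and 42 (3.68% and 3.52%), and 132 and 135 with paired alleles. The joint count was 23 with DESeq2, 191 without B6/CAST replicate 2 and 13 and 16 without CAST/B6 replicate 1 or 2.

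In matDKO/CAST embryos, the oocyte had lacked the enzymes that set DNA methylation imprints, and the comparison asks which parental biases of H3K27me3 depend on them. Here the father was always CAST, so that parent and strain cannot be told apart within this cross. The maternal reads of this cross also went through an additional alignment to the 129 genome that adds reads to the maternal set alone. Over all ExE peaks 44.2% and 46.9% of its allele-assigned reads were paternal, against 49.4% to 50.9% in the wild type. Genotype, 129 background and this alignment step cannot be told apart.

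Within matDKO/CAST, 8 domains were higher on the paternal allele and 16 on the maternal allele, against 0.818% and 1.29% of peaks. With DESeq2 the counts were 1 and 7, with paired alleles 64 and 60 and without TMM 19 and 20, and without replicate 3 there were 41 in all. The 50 domains with a paternal bias in the wild type had a median log2 ratio of 0.88 (0.28 to 3.06) in B6/CAST, 0.83 (0.22 to 3.41) in CAST/B6 and 0.13 (-0.56 to 0.58) in matDKO/CAST, with the same sign in 41. The 11 domains with a maternal bias had medians of -0.41, -0.53 and -0.42 (-1.54 to -0.08 in matDKO/CAST), with the same sign in 11. The wild-type values chose these groups and the matDKO/CAST libraries were not used for that choice.

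The difference in bias between matDKO/CAST and B6/CAST passed the test in 34 domains, each lower in matDKO/CAST (0.705% of peaks, while 0.0377% of peaks were higher). With paired alleles there were 68 lower and 2 higher. Of the 50 paternally biased domains 29 were among them, with a median difference of -0.81 over all 50, and of the 11 maternally biased domains none was (differences of -0.05 to 0.20). The B6/CAST libraries enter both the choice of the imprinted domains and this difference.

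**Figure D4:**
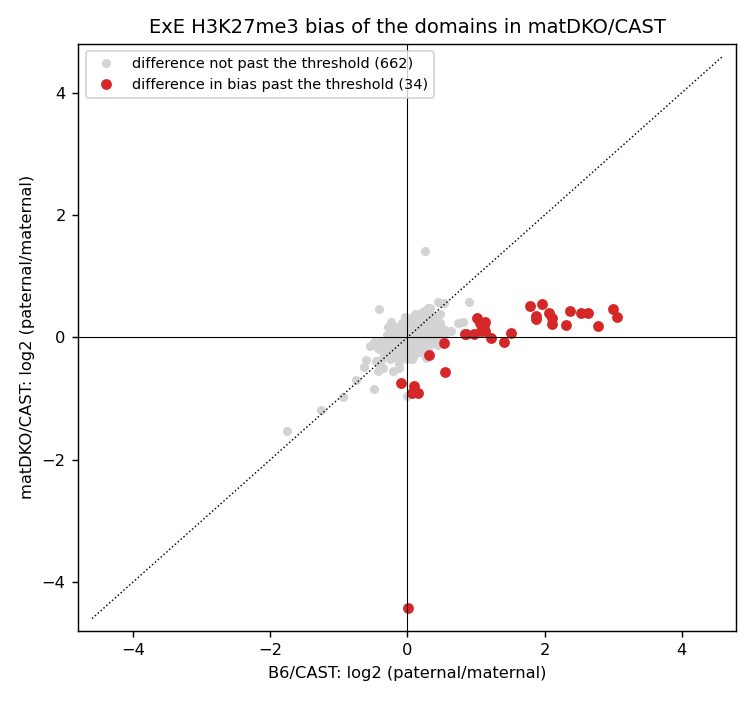
Log2 ratio of paternal to maternal H3K27me3 in ExE of B6/CAST (x axis) and matDKO/CAST (y axis) for each domain. The 34 domains whose bias differed between the crosses are in red and lie below the diagonal, and the other 662 are grey.

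The paternal domains of chromosome 17 moved the most among the imprinted ones. At Plg/Slc22a3 the paternal allele held 48.6 and 48.4 percent in matDKO/CAST, and the difference in log2 ratio from B6/CAST was -2.60 ± 0.150 (adjusted p = 1.29e-30). The total H3K27me3 over the same domain was 2.75, 2.25, 2.79 and 2.44 RPKM in wild-type ExE and 4.84 and 3.48 RPKM in matDKO/CAST, above every wild-type library. The differences in bias at Cdkn1c/Phlda2 and Rps6ka2/Tcp10a were -2.13 and -1.89. The level over Cdkn1c/Phlda2 went from 3.17, 2.74, 3.52 and 3.25 to 5.33 and 3.96, again above every wild-type library. Over the 50 paternal domains the median ExE level was 1.23 RPKM in the wild type and 1.52 in matDKO/CAST, while over all 696 it was 1.20 and 1.15. Total levels of wild type and matDKO/CAST were not tested against each other.

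The maternal domains had close to their wild-type values. Dlk1 had 19.1 and 25.7 percent paternal in matDKO/CAST (log2 ratio -1.54, adjusted p = 8.53e-15), Sfmbt2 23.6 and 29.9 (-1.20) and chr9:89779501-89895500 28.4 and 30.8 (-0.98, adjusted p = 5.09e-07). In the epiblast peak of the last domain, the matDKO/CAST values were 17.7 and 17.5 percent paternal. Of the epiblast peaks in domains, 7 were higher on the paternal allele and 20 on the maternal allele in matDKO/CAST (0.84% and 1.13% of epiblast peaks).

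The largest difference between the crosses was at a domain that was not imprinted, over the interferon-inducible GTPase genes Igtp and Irgm2 (chr11:58186501-58300500). Paternal and maternal reads numbered 40 and 36, 27 and 34 in B6/CAST, 71 and 73, 47 and 39 in CAST/B6, and 10 and 231, 8 and 241 in matDKO/CAST. The paternal share was thus 44.3% to 54.7% in the wild type and 4.1% and 3.2% in matDKO/CAST. There the maternal counts were above every wild-type value, although the 2 libraries held fewer allele-assigned reads. The paternal counts were below every wild-type value. The difference in log2 ratio was -4.46 ± 0.394 (adjusted p = 1.3e-17), yet the total level was 1.26 and 0.909 RPKM against 1.32, 1.01, 1.38 and 1.31 in the wild type, with no such rise. Others that were not imprinted were Pak6/Ankrd63 (-1.07, from 52.3 and 50.1 percent paternal in B6/CAST to 30.6 and 30.2), Epb42/Tgm5 (-0.91) and chr4:124115501-124335500 (-0.67, from 46.3 and 48.2 to 33.0 and 33.2). Each had fewer paternal reads than maternal in matDKO/CAST. The part of the additional maternal alignment in these was not tested.

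Between the tissues of matDKO/CAST embryos, whose libraries were not used for peak calling, 95 domains were higher in ExE and 2 in epiblast (10.0% and 2.21% of all ExE peaks). The peaks are those called in ExE, so a higher level in ExE is favoured. The median log2 difference was 0.26 over the domains and 0.15 over all peaks, and with each library centred on its median the counts were 47 and 16. The call count turned on single libraries: without ExE replicate 2 it was 12, without ExE replicate 3 it was 219, without epiblast replicate 1 it was 61 and without epiblast replicate 2 it was 20, each with the lone library assumed to vary like the others. The largest were again on chromosome 17. At Plg/Slc22a3 ExE had 4.84 and 3.48 RPKM and epiblast 1.39 and 1.42 (log2 difference 1.28 ± 0.179 on the scale of log2(RPKM + 0.5)), and Rps6ka2/Tcp10a and Dact2/Smoc2 had 1.16 and 1.06. Higher in epiblast were Magel2/Mkrn3, with 2.09 and 1.73 RPKM against 0.934 and 0.731 in ExE (-0.85 ± 0.162, adjusted p = 0.00479), and the gamma protocadherin cluster, with 5.32 and 3.64 against 2.74 and 2.06 (-0.77 ± 0.229, adjusted p = 0.0385). The gamma protocadherin call was lost without epiblast replicate 1 (adjusted p = 0.0978), ExE replicate 2 (adjusted p = 0.117) or ExE replicate 3 (adjusted p = 0.149). By gene content, 4 of 77 domains with a developmental regulator, 73 of 505 with other genes and 18 of 114 without a start were higher in ExE.

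H3K4me3, a mark that the choice of the domains did not use, was lower in ExE over many of the domains. It was lower in ExE in 163 of 696 domains (9.38% of all ExE peaks) and higher in 3 (3.7% of peaks). Samples with the same replicate number deviated together, and with the number as a block the counts were 77 and 3, while edgeR on recovered reads gave 242 and 16. The median log2 difference was -0.11 over the domains and 0.05 over all peaks, and the called changes had a median size of 0.35. The direction was the same in each cross for all 163 and for the 3, with domain medians of -0.12 (B6/CAST) and -0.10 (CAST/B6). The calls were made on the mean of both crosses, which favours the same direction in each. The share of domains that were lower in ExE was 48.1% with a developmental regulator (37 of 77), 23.2% with other protein-coding genes (117 of 505) and 7.89% without a start (9 of 114). Median H3K4me3 was 0.596 RPKM in ExE and 0.881 in epiblast over regulator domains, and 0.239 and 0.225 over domains without a start. The 0.5 RPKM added before the log2 shrinks differences most where the level is low. The part of this in the shares, and the difference between these classes, were not tested.

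**Figure D5:**
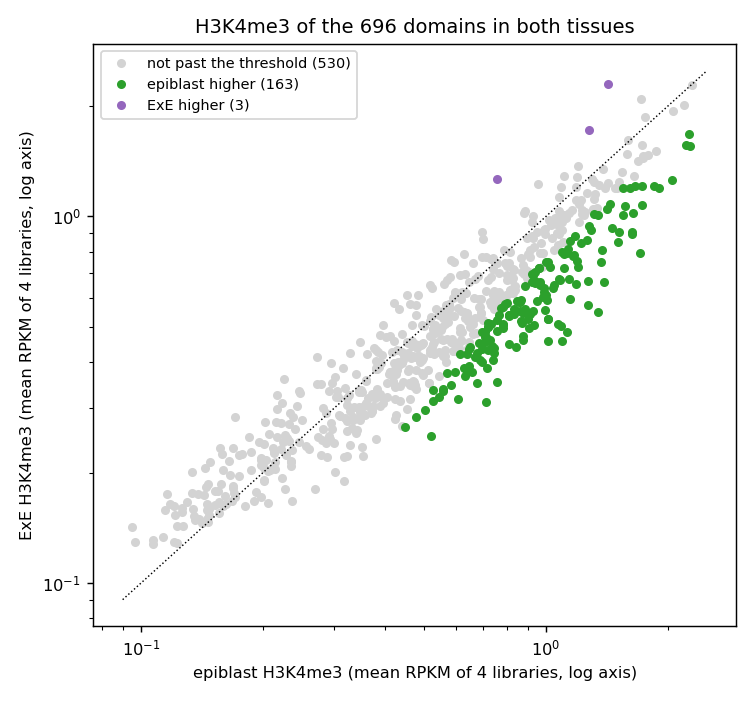
Mean wild-type H3K4me3 of each domain in epiblast (x axis) and ExE (y axis) in RPKM, both on log axes. The 163 domains with less H3K4me3 in ExE lie below the diagonal, the 3 with more lie above it, and 530 did not pass the test.

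The 3 domains with more H3K4me3 in ExE were Cdx2/Urad, Igf2/Ins2 and Sfmbt2. At Cdx2/Urad (chr5:147293501-147421500), where Cdx2 is a trophoblast homeobox factor, H3K4me3 was 2.57, 2.12, 2.06 and 2.44 RPKM in ExE and 1.58, 1.53, 1.41 and 1.15 in epiblast (0.55 ± 0.0950 on the log2 scale, adjusted p = 0.00016). Igf2/Ins2 (chr7:142580001-142774500) had 1.32, 1.16, 1.22 and 1.35 against 0.891, 0.825, 0.649 and 0.664, and no ExE value of either domain lay within the epiblast range. Sfmbt2 had 2.03, 1.69, 1.42 and 1.74 against 1.59, 1.38, 0.993 and 1.15, which overlap (0.32 ± 0.0900, adjusted p = 0.0153). With libraries centred on their medians none of the 3 passed. H3K27me3 over Cdx2/Urad was 1.45, 1.28, 1.48 and 1.41 RPKM in ExE and 1.89, 2.35, 2.85 and 2.52 in epiblast, the reverse order of H3K4me3.

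The domains with the largest H3K4me3 deficit in ExE were led by a domain without a protein-coding gene at chr2:94179501-94299000. Its values were 0.566, 0.691, 0.431 and 0.501 RPKM in ExE and 1.36, 1.55, 1.20 and 1.26 in epiblast, without overlap (-0.82 ± 0.0850, adjusted p = 1.3e-07). The next were transcription factor loci: the cut homeobox gene Onecut2 (-0.78 ± 0.0900, adjusted p = 6.24e-07), the basic helix-loop-helix gene Bhlhe23 (chr2:180745001-180904000; -0.74), the POU factor gene Pou4f3 (-0.72) and the homeobox pair Six3/Six2 (-0.72). At Bhlhe23 the ExE values were 0.472, 0.593, 0.399 and 0.359 RPKM and those of epiblast 1.04, 1.28, 0.971 and 1.10. At Six3/Six2 the means were 0.572 ± 0.149 in ExE and 1.27 ± 0.277 in epiblast (SD, n = 4). In both, each epiblast library was above each ExE library.

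H3K36me3 passed the test between tissues in 1 domain in each direction, no more than the share of all peaks, while edgeR on recovered reads called 180 domains. Sfmbt2 was higher in ExE (0.169% of peaks were), with 0.749, 0.759, 0.740 and 0.728 RPKM against 0.454, 0.466, 0.428 and 0.439 (0.39 ± 0.0630, adjusted p = 0.0343). Cacng7/Cacng8, calcium channel subunit genes (chr7:3300501-3439500), was higher in epiblast (0.617% of peaks were), with 0.621, 0.596, 0.720 and 0.724 RPKM against 0.301, 0.349, 0.529 and 0.527 in ExE (-0.34 ± 0.0590, adjusted p = 0.0415). Neither call held when any single library was left out. Over the domains the median log2 difference between ExE and epiblast was -0.18 for B6/CAST but 0.07 for CAST/B6, and the difference between the crosses was not tested. An H3K36me3 peak met 237 domains in ExE and 223 in epiblast, whereas H3K4me3 peaks met 681 and 680 of the 696.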

How the data were processed

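Chromatin was prepared by ultra-low-input native ChIP with micrococcal nuclease, with each pool's chromatin split over the antibodies and input. Per the study's methods, the authors trimmed reads with Trim Galore (0.4.4 in the submitters' processing notes), aligned them with Bowtie2 2.3.2 to GRCm38 with B6 and CAST polymorphisms masked, and split them by parent with SNPsplit. For matDKO/CAST, positions shared by 129 and CAST were left out and unassigned reads were aligned again to 129, which adds maternal reads alone. Peaks were called on the wild-type libraries of each cross with chromstaR and merged per mark and tissue. The deposited allelic tables hold maternal and paternal read counts per peak. The deposited window table holds RPKM in 1 kb windows of the 19 autosomes for 51 libraries, and its values were whole multiples of 1 read. The deposited peak lists have a score column that is 0 throughout. Here, the start and end columns set each peak's length; the peak names of 301 domains carry other coordinates, by which 520 domains would reach the length. Chromosome lengths were those of the GRCm38 reference, from which sequence was read, and genes and start sites were taken from GENCODE vM21.

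Domain levels were means of RPKM over windows. Allelic counts were tested with edgeR 4.0.16 (quasi-likelihood F test, at least 20 reads in an allele column of a wild-type library). The tests were within each cross, jointly for parent and strain, and as the interaction of parent with cross. TMM scaling was computed over the allele columns of each fit. Levels on log2(RPKM + 0.5) were compared with limma 3.58.1 with an intensity-dependent prior. P-values were adjusted by the Benjamini-Hochberg method over all tested peaks of a table, and 0.05 was the threshold. R 4.3.3, DESeq2 1.42.0 and Python 3.11.15 were used. The ExE allelic fits without paired alleles, and limma for H3K4me3 and H3K36me3 on wild-type libraries alone, were tested on simulated data. The epiblast fits, the fits with a block and the limma fit of H3K27me3 were not. The 2 alleles of a library are a true pair and are given as a block beside the fit without it. The deviations of same-numbered H3K4me3 libraries of the 2 tissues correlated (r = 0.47 for B6/CAST, 0.425 for CAST/B6), so that the block is given for that mark too. The alternatives were paired alleles, DESeq2, other minimum reads, no TMM, other pseudocounts and filters, libraries centred on their medians, edgeR on reads recovered from RPKM, domains with at least 50% epiblast coverage, and each library left out. The members and gene lists were chosen with earlier results of these data known. Named domains were the longest, the highest and lowest in ExE level, the Hox domains, those with the largest parental, strain and matDKO/CAST effects, and those with the largest differences in marks between tissues. Intervals of read counts were not used, and depth is given as reads per domain. Chromosomes X and Y were not analysed here. A few of the domains so chosen are not reported here by name and are left out of the plot of bias by distance, but they stay in every fit and count.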

Additional observations from a re-analysis of the deposited data

Results flagged for a closer look

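The parental bias of 34 domains differed between matDKO/CAST and B6/CAST by the test of the difference itself. The largest was -4.46 on the log2 scale at Igtp/Irgm2, which is not imprinted in the wild type. Its maternal reads were above, and its paternal reads below, every wild-type count in matDKO/CAST. Among the paternal domains of chromosome 17, the difference was -2.60 at Plg/Slc22a3. Of the domains that were not imprinted, Pak6/Ankrd63 differed by -1.07, Epb42/Tgm5 by -0.91 and chr4:124115501-124335500 by -0.67. The Epb42/Tgm5 call was lost with DESeq2 (-0.90, adjusted p = 0.0877) and without B6/CAST replicate 1 (adjusted p = 0.219), B6/CAST replicate 2 (adjusted p = 0.065) or matDKO/CAST replicate 2 (adjusted p = 0.22). The call of chr4:124115501-124335500 was lost without B6/CAST replicate 1 (adjusted p = 0.304) or 2 (adjusted p = 0.542). Genotype, 129 background and the alignment step that adds maternal reads cannot be told apart.

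The median difference in H3K36me3 between ExE and epiblast over the domains was -0.18 for B6/CAST but 0.07 for CAST/B6, opposite in sign. The difference between the crosses was not tested. Over all ExE peaks the medians were -0.17 and 0.04, close to those of the domains.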

How the results depend on the processing

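Of the values for named domains, 509 kept their direction and their side of the threshold under an alternative, 61 lost the call and 0 turned. The values below are counts of domains, or of epiblast peaks in them, past the threshold, and the cause of a change was not tested unless fewer libraries or peaks were used. With paired alleles the counts were 98 imprinted (61 as reported), 73 strain-specific (31), 291 joint parent (175), 342 joint strain (212), 124 for matDKO/CAST bias (24) and 70 for its difference from B6/CAST (34), and in epiblast peaks 37 imprinted (20), 29 strain-specific (8), 108 joint parent (41) and 267 joint strain (80). The alleles' deviations correlated at r = 0.0501 to 0.076 in ExE and 0.0368 to 0.293 in epiblast. With DESeq2 the counts were 10 strain-specific, 114 joint parent, 102 joint strain and 8 for matDKO/CAST, and in epiblast 12 imprinted, 2 strain-specific and 23 joint strain. Without TMM there were 271 joint parent calls and 39 for matDKO/CAST. With at least 100 reads there were 37 for matDKO/CAST, and in epiblast, with fewer peaks tested, 13 imprinted, 3 strain-specific, 26 joint parent and 30 joint strain. In the 192 domains with at least 50% epiblast coverage, fewer by construction, there were 13 imprinted, 10 strain-specific, 44 joint parent, 56 joint strain, 16 for the matDKO/CAST tissue difference and 84 for H3K4me3. With 150000 bp as the length there were 308 domains. By any overlap with a protein-coding gene, 69 domains in place of 114 had none.

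Leaving out each library in turn gave 35 to 44 imprinted, 2 to 12 strain-specific, 101 to 132 joint parent, 120 to 157 joint strain, 18 to 41 matDKO/CAST and 23 to 36 difference calls. In epiblast it gave 10 to 31, 3 to 10, 21 to 100 and 13 to 191 calls in the same order of the first 4. It gave 12 to 219 for the matDKO/CAST tissue difference, 112 to 154 for H3K4me3 and 0 for H3K36me3. The median log2 ratio of ExE to epiblast levels, 0.45, was 0.395 to 0.526 without each library, an alternative added after seeing the data. With libraries centred on their medians the tissue counts were 63 for matDKO/CAST H3K27me3 and 1 for H3K36me3. With edgeR on recovered reads they were 258 for H3K4me3 and 180 for H3K36me3, and 95 domains had an unadjusted p under 0.05 for H3K36me3 in limma. The replicate block gave 80 for H3K4me3 and 0 for H3K36me3, whose same-numbered libraries did not deviate together (r = 0.0191 and 0.00553). With a filter of 0.5 RPKM, H3K36me3 had 6. No paired analysis was possible because the matDKO/CAST H3K27me3 libraries of the 2 tissues share only 1 replicate number.

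Epiblast peaks had as few as 19 median allele-assigned reads in a matDKO/CAST library. Each cross has 2 libraries, and leaving 1 out leaves a lone library that is assumed to vary like the others.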
